A study of Homo sapiens with 4 samples.

Results

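Genes of fatty acid and glycerolipid synthesis were examined in cells labelled as MDA-MB-453, an established human breast cancer line, with and without reduced TMEM9. The set was fixed by name as 36 genes covering de novo synthesis, desaturation, elongation, activation and acylglycerol assembly with storage. Of these, 35 were matched to a row among the 48162 genes of the count table, and 32 passed the filter on low counts, among 14923 genes that passed it in all. ACACA, the cytosolic acetyl-CoA carboxylase, was paired with no row by the name tables used here and is not analysed here. THRSP, ELOVL2 and PLIN2 did not pass the filter and are given by their counts.

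RNA-seq was done on 2 libraries labelled wild type (WT) and 2 labelled TMEM9 KD, all labelled as MDA-MB-453. The product of TMEM9 sits in the membranes of endosomes and lysosomes. The sources used here do not give how it was reduced, whether the knockdown cells were a clone, or what the WT cells received. Nor do they say whether replicate libraries were grown as separate cultures, so the p-values reflect spread that can be purely technical. The libraries held 15323843 and 18517337 counts in WT and 15960941 and 17065126 in TMEM9 KD. TMEM9 itself stood at 74.9 and 83.3 CPM in WT and at 3.11 and 4.47 CPM in TMEM9 KD, in the direction of the labels. CPM here are counts scaled to library size with trimmed mean of M-values (TMM) factors. A positive log2 fold change means a higher level in TMEM9 KD than in WT.

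Among 14 marker genes of the line and of luminal tumours of its kind, ERBB2 lay between 53.3 and 63.8 CPM over the 4 libraries. PIP had no count, and SPDEF, AGR2, TFF3 and AZGP1 stayed at or below 0.458 CPM in every library, so these defining markers were absent or nearly so from WT and knockdown libraries alike. These levels go against the labelled line, whose identity was not otherwise tested here, and every comparison is between libraries labelled as it. The series text calls the profiles retinal, but the 7 photoreceptor genes summed to at most 1.09 CPM in a library. Among 8 adipocyte markers, ADIPOQ, LEP and CIDEC had no count, and the sum ran from 3.68 and 4.01 CPM in WT to 11.8 in each knockdown library, where LPL gave 7.45 and 6.24 CPM of it. The 7 basal and myoepithelial markers summed to 284 and 288 CPM in WT and to 40.6 and 38.6 CPM in TMEM9 KD. Of the 7, 6 were called lower (85.7%) and 0 higher, against 29% and 28.7% of all genes tested. Of 8 fibroblast markers, 7 were tested, 4 higher (57.1%) and 3 lower (42.9%), against the same 28.7% and 29% of all genes. The sum of the 8 was 1832 and 1866 CPM in WT against 1384 and 1564 CPM in TMEM9 KD. Within it COL3A1 fell from 947 and 966 CPM to 27.7 and 34.5 CPM, 30.7-fold lower, and THY1 fell 9.26-fold, while COL1A1 rose from 815 and 832 CPM to 1300 and 1473 CPM. The 7 leukocyte markers summed to 12.6 and 13.9 CPM in WT and 5.56 and 6.02 CPM in TMEM9 KD, with CD3E and LYZ at 0. Of the 3 leukocyte markers tested, CD14 and CD74 fell (66.7%, against 29% of all genes). PTPRC, found on nearly all leukocytes, rose from 2.27 and 2.78 CPM to 4.4 and 4.01 CPM (33.3%, against 28.7%). The 4 hepatocyte markers summed to 12.1 CPM or less, with APOA1 and TTR at 0. Mitochondrially encoded transcripts took 3.98% of the counts of each WT library and 3.18% and 2.83% of the knockdown libraries. Whether the cell-marker and mitochondrial differences have a part in the lipid gene values was not tested.

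Cells build fatty acids from cytosolic acetyl-CoA, which ATP-citrate lyase makes from citrate and acetyl-CoA synthetase makes from acetate. Acetyl-CoA carboxylase forms malonyl-CoA, and fatty acid synthase joins these units into palmitate, which elongases lengthen and desaturases give double bonds. Long-chain acyl-CoA synthetases activate fatty acids. Glycerol-3-phosphate acyltransferases, acylglycerol-phosphate acyltransferases, lipins and diacylglycerol acyltransferases then place them on glycerol. Many genes of these steps are known targets of the transcription factor SREBP-1, which binds sterol regulatory elements, often beside NF-Y boxes.

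Promoter windows are printed for 4 genes that the results turn on: MID1IP1, which showed the largest decrease of the set, ACSL5, with the next largest, and ACLY and SCD, which were higher in TMEM9 KD. The windows are RefSeq sequences of build GRCh38.p14, from 250 bases before to 50 bases after the annotated start, written 5′ to 3′ on the gene's strand. They lie at chrX:38801209-38801508 on the plus strand, chr10:112375018-112375317 on the plus strand, chr17:41918973-41919272 on the minus strand and chr10:100346983-100347282 on the plus strand. Capitals mark matches, on either strand, to the core letters of a sterol regulatory element (TCACNCCAC), an E-box (CACGTG) or an NF-Y box (CCAAT).
MID1IP1: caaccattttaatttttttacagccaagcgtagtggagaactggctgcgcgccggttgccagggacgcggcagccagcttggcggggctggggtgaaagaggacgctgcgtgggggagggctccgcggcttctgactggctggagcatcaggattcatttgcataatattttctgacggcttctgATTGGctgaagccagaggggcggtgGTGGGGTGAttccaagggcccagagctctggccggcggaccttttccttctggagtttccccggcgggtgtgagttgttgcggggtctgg
ACSL5: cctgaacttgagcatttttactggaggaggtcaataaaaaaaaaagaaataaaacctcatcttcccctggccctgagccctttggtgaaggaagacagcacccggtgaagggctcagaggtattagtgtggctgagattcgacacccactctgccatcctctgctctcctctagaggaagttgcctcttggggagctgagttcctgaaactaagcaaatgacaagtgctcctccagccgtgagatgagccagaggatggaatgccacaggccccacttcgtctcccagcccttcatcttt
ACLY: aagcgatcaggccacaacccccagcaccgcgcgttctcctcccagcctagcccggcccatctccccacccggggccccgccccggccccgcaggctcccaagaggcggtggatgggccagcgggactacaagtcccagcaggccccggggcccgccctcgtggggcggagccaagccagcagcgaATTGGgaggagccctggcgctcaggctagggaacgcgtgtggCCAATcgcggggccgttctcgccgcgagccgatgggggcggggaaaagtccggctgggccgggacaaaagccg
SCD: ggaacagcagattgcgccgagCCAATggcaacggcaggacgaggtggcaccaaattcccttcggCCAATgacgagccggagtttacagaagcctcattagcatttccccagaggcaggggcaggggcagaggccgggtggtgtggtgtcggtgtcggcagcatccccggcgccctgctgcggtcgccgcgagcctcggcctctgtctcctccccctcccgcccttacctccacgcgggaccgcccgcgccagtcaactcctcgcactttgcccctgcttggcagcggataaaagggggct
In the MID1IP1 window the sterol element core appears as GTGGGGTGA, starting 40 bases before the start site, and an NF-Y box as ATTGG, starting 65 bases before it. ACLY held 2 NF-Y boxes, at 65 and 23 bases before its start, and SCD held 2, at 229 and 186 bases before its start. None of the searched letters occurred in the ACSL5 window.

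Windows were found for 29 of the 35 matched genes. FASN, GPAT4, AGPAT5, LPIN3, DGAT1 and DGAT2 had none and were not searched. MID1IP1 was the only 1 of these with the sterol element core (3.45%), against 1.13% of all 35116 windows of this length. NF-Y boxes occurred in 15 of the 29 (51.7%) against 34.6% of all windows. E-boxes occurred in 3 (10.3%) against 7.26%, namely ELOVL4, ELOVL5 and PLIN2, and no searched motif overlapped another. For each gene of the set only the first window listed was searched, while the share of all windows counted every window. The percentages are thus per gene in the set and per window in the background. A match describes the letters in the window and not a bound site.

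In TMEM9 KD, 4 of the 5 tested elongation genes were higher, as were 3 of 5 in de novo synthesis and 3 of 5 in desaturation. All 4 acyl-CoA synthetase genes of the set were lower, and acylglycerol genes went in either direction. By edgeR's quasi-likelihood test with Benjamini-Hochberg adjustment over all genes tested, 13 of the 32 tested genes rose (40.6%) and 15 fell (46.9%). The background was 28.7% of all genes called higher and 29% called lower, or 57.7% in either direction. All 32 had a mean of at least 5 CPM, and among the 10824 tested genes at that level 31.6% were called higher and 31.5% lower, or 63.1% together. By at least 2-fold, 0 of the 32 rose and 5 fell, against 7.24% and 10.1% of all genes. Both knockdown libraries lay above both WT libraries in 14 of the 32 genes and below them in 16, against 39.1% and 38.5% of all genes (77.6% together). The median log2 fold change of the set was -0.04, and that of all genes 0.01. The median absolute change was 0.47 in the set and 0.38 over all genes. Tested against a change of 1.5-fold, 3 of the 32 were higher (FADS1, ELOVL7 and LPIN1) and 7 lower (MID1IP1, SCD5, ACSL4, ACSL5, GPAM, AGPAT4 and DGAT2), against 7.44% and 11.3% of all genes.

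**Figure D1:**
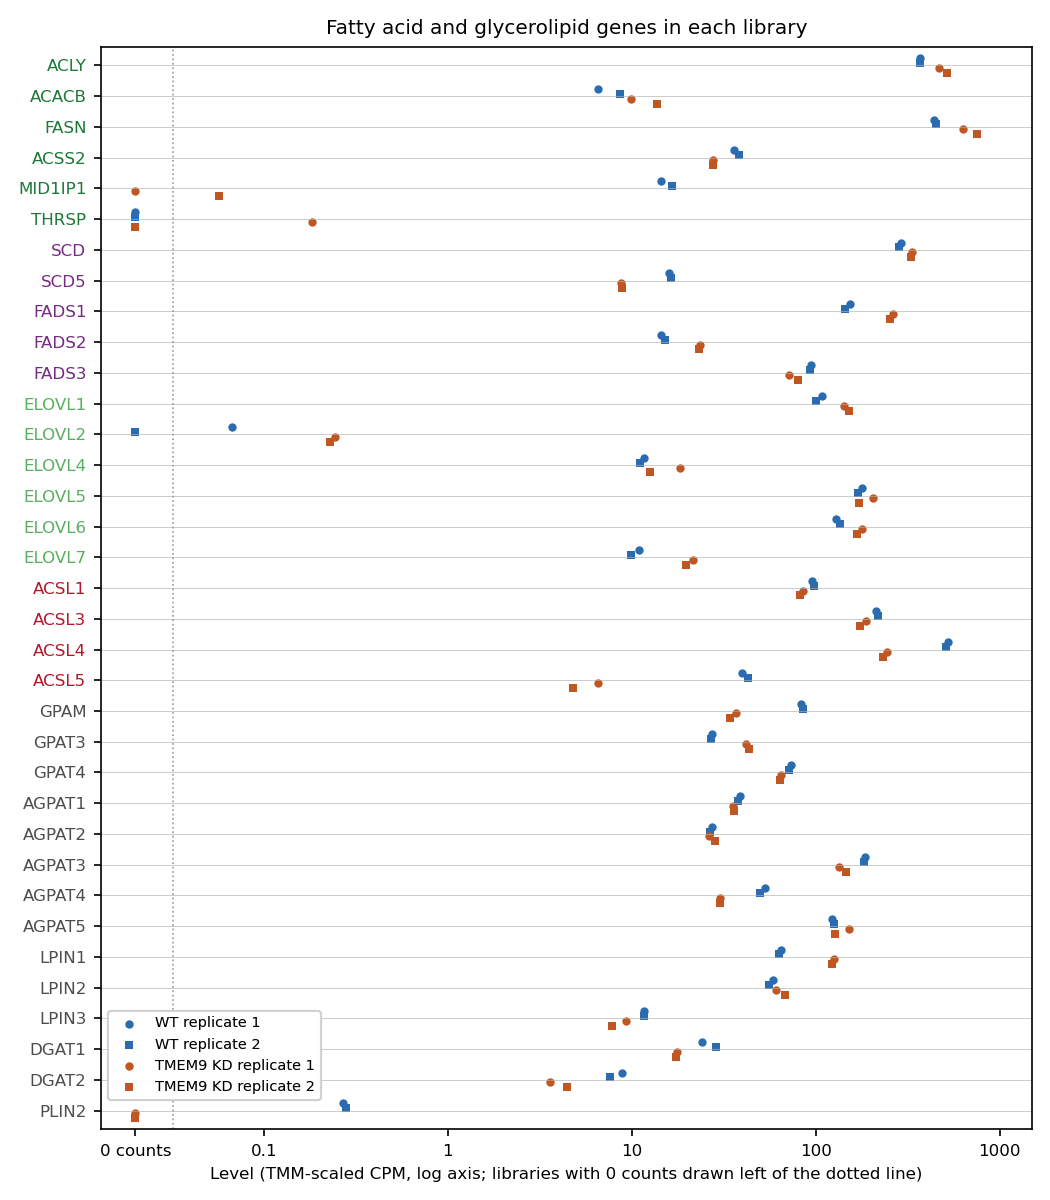
Level of each of the 35 matched genes in each library, in TMM-scaled CPM on a log axis, with gene names coloured by step, WT libraries in blue and TMEM9 KD libraries in orange. Most genes keep the replicates of a group close together, MID1IP1 drops from 14.4 and 16.6 CPM to 0 and 1 counts, and ACSL5 lies near 40 CPM in WT and below 7 CPM in TMEM9 KD.

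Of the 5 genes of de novo synthesis tested, FASN, ACLY and ACACB were higher in TMEM9 KD, by 1.34-fold to 1.56-fold, and ACSS2 and MID1IP1 were lower. These shares, 60% higher and 40% lower, stand beside 28.7% and 29% of all genes. FASN, which encodes fatty acid synthase, had 439 and 453 CPM in WT and 636 and 757 CPM in TMEM9 KD. The knockdown libraries differed from each other by more than the WT libraries did, yet each lay above both WT values (log2 fold change 0.64, SE 0.0563, adjusted p = 4.33e-18). For ACLY, ATP-citrate lyase, the levels were 367 and 371 CPM in WT and 468 and 520.1 CPM in TMEM9 KD. The groups of ACLY did not overlap (log2 fold change 0.42, SE 0.0557, adjusted p = 2.03e-10). ACACB, the acetyl-CoA carboxylase of the outer mitochondrial membrane, whose product inhibits entry of fatty acids into mitochondria, was a minor transcript at 6.55 and 8.68 CPM in WT and 9.89 and 13.7 CPM in TMEM9 KD. The ACACB groups did not overlap, and the log2 fold change was 0.62 (SE 0.168, adjusted p = 0.000923). Leaving out WT replicate 1 (adjusted p = 0.0649) or TMEM9 KD replicate 2 (0.0984) removed the call of ACACB.

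ACSS2, the enzyme that makes acetyl-CoA from acetate, went the other way, from 35.8 and 38.3 CPM in WT to 27.5 and 27.6 CPM in TMEM9 KD. The log2 fold change of ACSS2 was -0.43 (SE 0.0996, adjusted p = 0.000132). MID1IP1, a small protein that binds acetyl-CoA carboxylase and promotes its assembly into active filaments, had 216 and 299 counts in WT and 0 and 1 count in TMEM9 KD. The ratio of WT to TMEM9 KD over the pooled counts was 529, with an exact Clopper-Pearson 95% interval of 94.5 to 20937 that covers counting error only. MID1IP1 was thus almost absent from the knockdown libraries, and its call held in every alternative tried. Its antisense neighbour MID1IP1-AS1, which shares 151 exon bases with it in GENCODE 29, had 11 and 7 counts in WT and none in TMEM9 KD. As the strand setting of the counting is not known, reads of the pair cannot be told apart, but the antisense counts were small beside those of MID1IP1. THRSP, the paralogue of MID1IP1 known from liver and fat, had 3 counts in TMEM9 KD replicate 1 and 0 in the other libraries.

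Of the 5 desaturase genes, 3 rose (60%) and 2 fell (40%), with a split within each family. Of all genes, 28.7% rose and 29% fell. SCD, stearoyl-CoA desaturase, which makes oleate, had 291 and 282 CPM in WT and 335 and 328 CPM in TMEM9 KD. The change of SCD was small (log2 fold change 0.21, SE 0.0569, adjusted p = 0.00106), and leaving out WT replicate 1 (adjusted p = 0.0587) or WT replicate 2 (0.145) removed the call. SCD5, another stearoyl-CoA desaturase, fell from 15.9 and 16.4 CPM to 8.73 and 8.88 CPM (log2 fold change -0.88, SE 0.147, adjusted p = 2.3e-07). Per kb of exon, SCD5 made up 6.39% and 6.77% of the pair in WT and 3.16% and 3.27% in TMEM9 KD.

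FADS1, the delta-5 desaturase of polyunsaturated fatty acids, rose from 154 and 144 CPM to 264 and 255 CPM (log2 fold change 0.80, SE 0.0615, adjusted p = 2.65e-21). FADS2, the delta-6 desaturase, rose from 14.5 and 15.2 CPM to 23.5 and 23.3 CPM (log2 fold change 0.66, SE 0.123, adjusted p = 2.85e-06). These genes are neighbours that share 490 exon bases on opposite strands in GENCODE 29, so some reads of FADS1 may have been counted for FADS2 or the reverse. FADS2 also shares 49 exon bases on the same strand with FEN1, which had 2040 and 2520 counts in WT and 2999 and 3472 in TMEM9 KD. Whether reads of FEN1 were counted for FADS2 was not tested. FADS3, a related desaturase of sphingoid bases, fell from 94.8 and 93.6 CPM to 71.4 and 80.6 CPM (log2 fold change -0.31, SE 0.074, adjusted p = 0.000202). FADS1 and FADS3 were about level in WT per kb of exon, at 47.8% and 48% of the family in replicate 1 and 46.4% and 49.1% in replicate 2. In TMEM9 KD, FADS1 took 65.7% and 62.5% and FADS3 28.9% and 32.2%.

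Of the 5 elongase genes tested, 4 rose (80%) and 0 fell, against 28.7% and 29% of all genes. ELOVL7, an elongase of long saturated acyl chains, showed the largest increase of the whole set, from 10.9 and 9.85 CPM to 21.4 and 19.8 CPM (log2 fold change 0.99, SE 0.136, adjusted p = 7.58e-10). ELOVL1, which makes very long-chain saturated acyl-CoAs for sphingolipids, rose from 108 and 101 CPM to 142 and 151 CPM (log2 fold change 0.49, SE 0.0674, adjusted p = 6.57e-10). ELOVL6, which lengthens palmitate to stearate, had 129 and 135 CPM in WT against 179 and 168 CPM (log2 fold change 0.39, SE 0.0645, adjusted p = 1.15e-07). In each of these genes both knockdown libraries lay above both WT libraries.

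ELOVL4, which makes ultra-long chains, had 11.6 and 11.1 CPM in WT and 18.3 and 12.5 CPM in TMEM9 KD. It was called higher (log2 fold change 0.43, SE 0.148, adjusted p = 0.00881), but without TMEM9 KD replicate 1 the log2 fold change was 0.14 (adjusted p = 0.488), and the call also ended without WT replicate 2 (0.0743) and with DESeq2 (0.09). ELOVL5, the elongase of polyunsaturated chains, was not called, with 179 and 169 CPM in WT and 205 and 173 CPM in TMEM9 KD (adjusted p = 0.0996). Without TMEM9 KD replicate 2 it was called higher (log2 fold change 0.23, adjusted p = 5.31e-06), and so it was with library totals as the only scaling (0.00681). ELOVL2 was barely detected, with 1 count over the WT libraries and 8 over the knockdown libraries, a ratio of TMEM9 KD to WT of 7.79 (95% counting interval 1.04 to 346). Over the family, CPM per kb of exon summed to 114 and 109 in WT and 146 and 137 in TMEM9 KD.

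**Figure D2:**
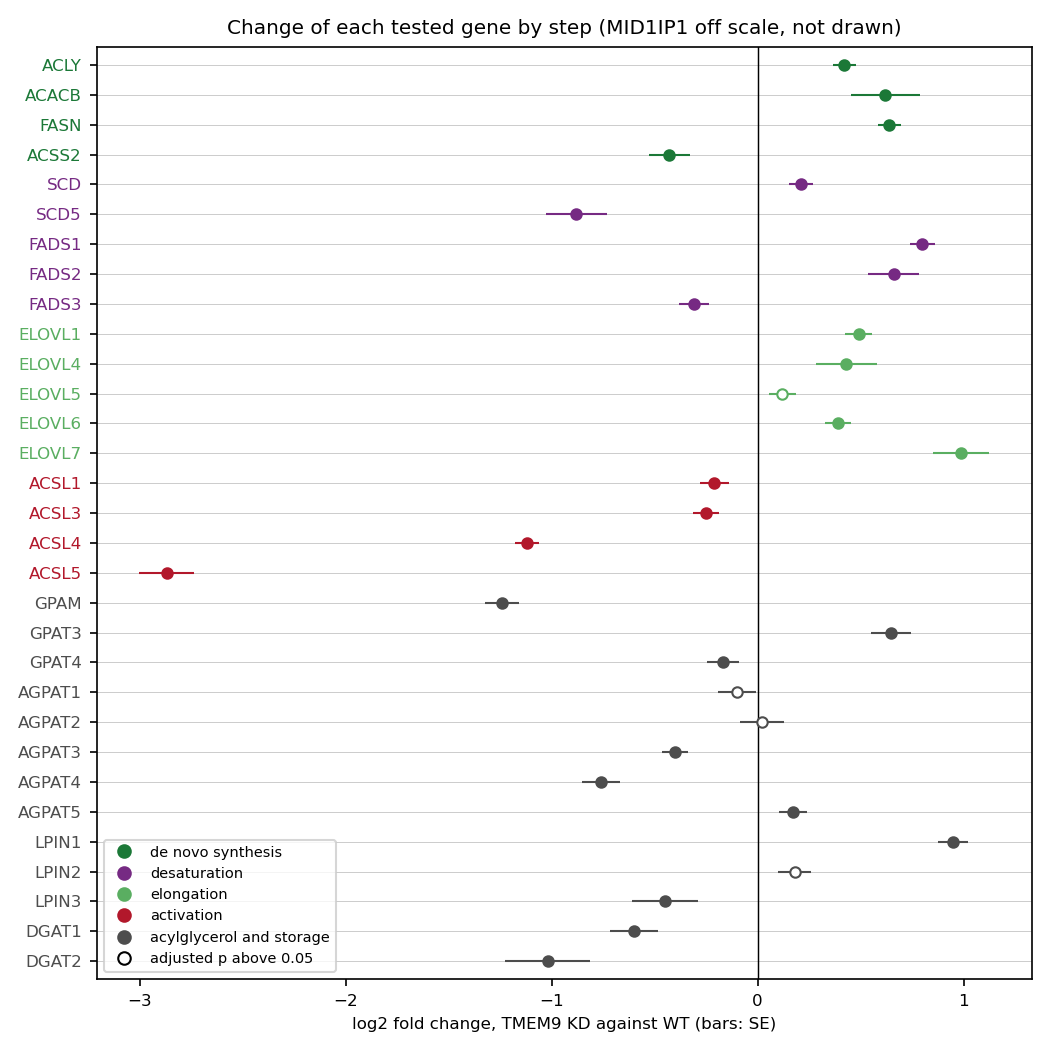
Fitted log2 fold change of 31 tested genes (x axis, TMEM9 KD against WT; bars are SE), coloured by step, with open symbols for genes above the adjusted p threshold of 0.05; MID1IP1 is not drawn. All 4 activation genes lie left of 0, the elongases lie right of it, and ACSL5 is the farthest out at -2.87.

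All 4 acyl-CoA synthetase genes of the set fell, against 29% of all genes. Their summed level went from 875 and 872 CPM to 525 and 493 CPM. ACSL4, which prefers arachidonic and other polyunsaturated acids, was the most abundant of them and fell from 526 and 513 CPM to 245 and 231 CPM (log2 fold change -1.12, SE 0.0565, adjusted p = 2.9e-33). ACSL5, an isoform of mitochondria and the endoplasmic reticulum, fell from 39.5 and 42.7 CPM to 6.54 and 4.76 CPM, which is 7.31-fold lower (log2 fold change -2.87, SE 0.134, adjusted p = 1.23e-35). ACSL4 and ACSL5 kept their calls in every alternative tried, the test against 1.5-fold included. ACSL5 shares 144 exon bases on the opposite strand with ZDHHC6, which had 1121 and 1295 counts in WT and 1007 and 950 in TMEM9 KD. Some reads may thus have been counted for the wrong gene of this pair.

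ACSL3, the isoform of lipid droplets and the endoplasmic reticulum, had 213 and 218 CPM in WT and 188 and 175 CPM in TMEM9 KD (log2 fold change -0.25, SE 0.0614, adjusted p = 0.000263). ACSL1, a broad long-chain isoform, had 95.8 and 97.9 CPM in WT and 85.4 and 82.1 CPM in TMEM9 KD. Its decrease was the smallest of the family (log2 fold change -0.21, SE 0.0719, adjusted p = 0.00927), and its call was lost without WT replicate 1 (0.0855) or WT replicate 2 (0.147) and with library totals as the only scaling (0.098). Per kb of exon, ACSL4 held 60.3% and 58.9% of the ACSL genes of the set in WT and 48.2% and 48.5% in TMEM9 KD. ACSL3 held 21.7% and 22.2% against 32.7% and 32.4%, and ACSL5 6.84% and 7.43% against 1.94% and 1.51%. A further gene of the family, ACSL6, was not in the set and stood at 1.34 and 0.612 CPM in WT. It was called higher, at 2.02 and 2.01 CPM in TMEM9 KD (log2 fold change 1.07, SE 0.422, adjusted p = 0.0238).

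**Figure D3:**
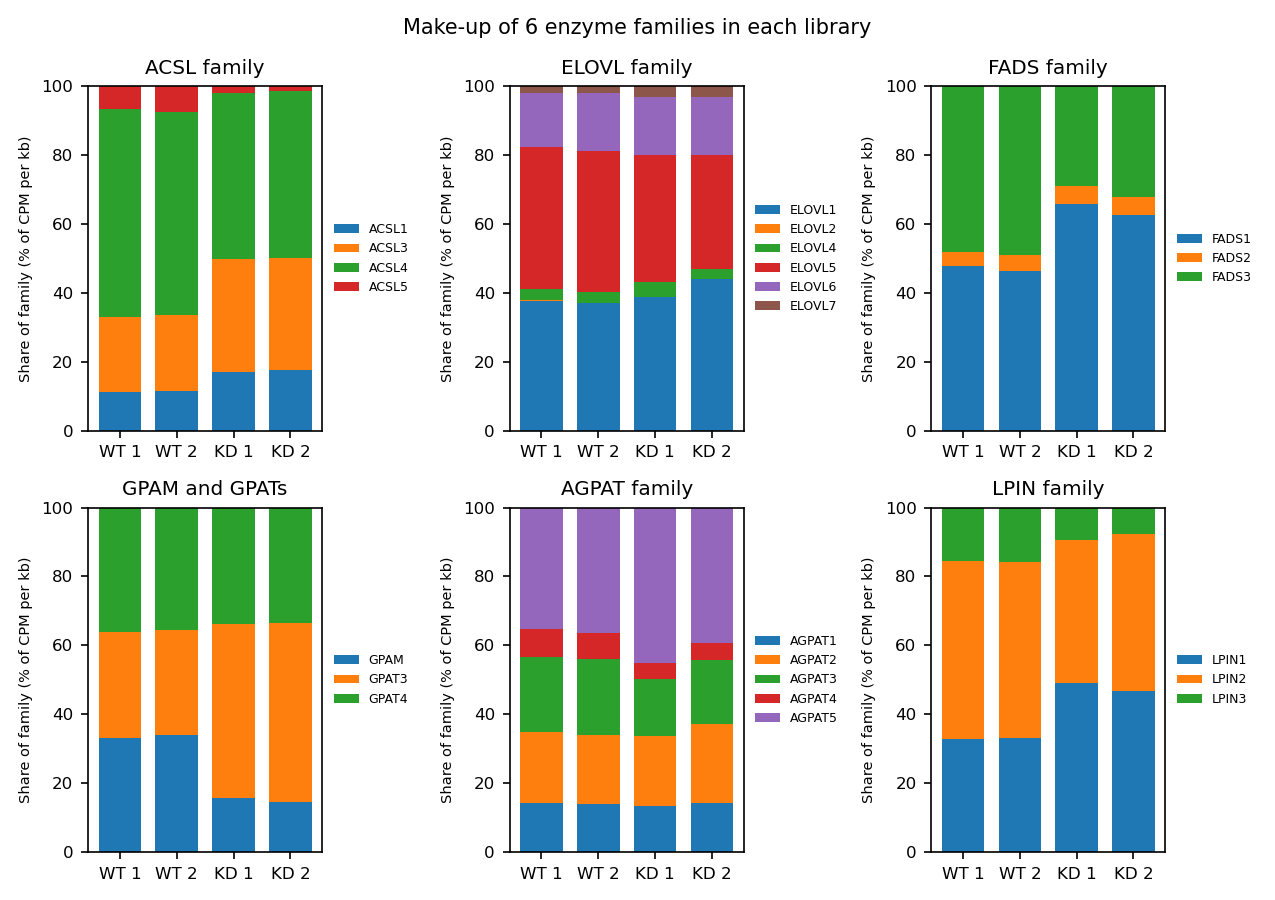
Share of each gene in its family's summed CPM per kb of exon (y axis, percent) in each of the 4 libraries, for 6 enzyme families. ACSL4 and ACSL5 take less and ACSL3 and ACSL1 more of the ACSL genes of the set in TMEM9 KD. In their families GPAT3 takes more and GPAM less, FADS1 takes more and FADS3 less, and LPIN1 gains on LPIN2 and LPIN3.

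The first acylation of glycerol-3-phosphate is carried out by isoenzymes of mitochondria and the endoplasmic reticulum, of which GPAM and GPAT4 were called lower and GPAT3 higher. GPAM, the mitochondrial isoform, fell from 83.1 and 84.9 CPM to 36.9 and 34.4 CPM (log2 fold change -1.24, SE 0.0829, adjusted p = 7.22e-25). GPAT3, of the endoplasmic reticulum, rose from 27.4 and 27 CPM to 42 and 43.2 CPM (log2 fold change 0.65, SE 0.0972, adjusted p = 1.04e-08). GPAT4, also of the endoplasmic reticulum, had 73.3 and 71.8 CPM in WT and 64.5 and 64.1 CPM in TMEM9 KD. Per kb of exon the 3 genes summed to 25.6 and 25.5 in WT and 24 in each knockdown library, so the total was about level while the share of GPAM went from 33.1% and 34% to 15.7% and 14.6% and that of GPAT3 from 30.8% and 30.5% to 50.4% and 51.8%. GPAT4 was called lower by a narrow margin (log2 fold change -0.17, SE 0.0773, adjusted p = 0.0459). That call ended without WT replicate 1 (0.257) or WT replicate 2 (0.176) and with DESeq2 (0.102), and the value turned to 0.03 with the median of its chromosome, chromosome 8, removed.

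The next acylation, by AGPAT enzymes, makes phosphatidic acid. AGPAT4 fell from 52.9 and 49.5 CPM to 30.1 and 30.2 CPM (log2 fold change -0.76, SE 0.0924, adjusted p = 9.27e-12). AGPAT3 fell from 185 and 184 CPM to 134 and 146 CPM (log2 fold change -0.40, SE 0.0638, adjusted p = 6.84e-08). AGPAT5, a mitochondrial isoform, had 122 and 126 CPM in WT and 152 and 127 CPM in TMEM9 KD. AGPAT5 was called higher (log2 fold change 0.17, SE 0.0685, adjusted p = 0.0268), but without TMEM9 KD replicate 1 the log2 fold change was 0.04 (0.545), and the call ended without WT replicate 1 (0.29) and WT replicate 2 (0.159) too. AGPAT1 and AGPAT2, of the endoplasmic reticulum, were not called, with log2 fold changes of -0.10 (SE 0.0944) and 0.02 (SE 0.106) and levels between 26.3 and 38.9 CPM. PPT2-EGFL8 overlaps 29.9% of the exon bases of AGPAT1 on the opposite strand, but held 10 counts or fewer in each library.

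Lipins remove the phosphate to give diacylglycerol. LPIN1 rose from 64.7 and 63.3 CPM to 126 and 122 CPM (log2 fold change 0.95, SE 0.0722, adjusted p = 1.36e-21). LPIN2 had 58.6 and 55.4 CPM in WT and 60.8 and 67.9 CPM in TMEM9 KD. It was not called (adjusted p = 0.0539), but was called higher without TMEM9 KD replicate 1 (0.00233) and with library totals as the only scaling (0.00552). LPIN3 fell from 11.7 and 11.6 CPM to 9.34 and 7.79 CPM (log2 fold change -0.45, SE 0.16, adjusted p = 0.0128). The call of LPIN3 ended without WT replicate 1 (0.0595), WT replicate 2 (0.06) or TMEM9 KD replicate 2 (0.108) and with DESeq2 (0.0811). LPIN1 went from 32.8% and 33.3% of the family per kb of exon in WT to 49.1% and 46.8% in TMEM9 KD.

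The diacylglycerol acyltransferases, which make triacylglycerol, were both lower. DGAT1 fell from 24 and 28.8 CPM to 17.6 and 17.4 CPM (log2 fold change -0.60, SE 0.118, adjusted p = 6.71e-06). It shares 139 exon bases on the opposite strand with HSF1, which had 932 and 1182 counts in WT and 925 and 1157 in TMEM9 KD. DGAT2, the isoform tied to newly made fatty acids, fell from 8.9 and 7.62 CPM to 3.6 and 4.47 CPM (log2 fold change -1.02, SE 0.205, adjusted p = 1.04e-05). PLIN2, the coat protein of lipid droplets, had 4 and 5 counts in WT and none in TMEM9 KD. With the knockdown group set to a floor of 3 counts in total, the ratio of WT to TMEM9 KD was 3.08. This ratio takes the 9 WT counts as exact, so the true fold can be smaller. The WT level of PLIN2 was 0.268 and 0.278 CPM.

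Levels can be set side by side per kb of exon, with exon lengths from GENCODE 29, which may differ from the annotation used for counting. On that scale the highest means in WT were ACSL4 at 81 CPM per kb, ACLY at 70.7, SCD at 53.5, FASN at 47.6, ELOVL5 at 45.6 and ELOVL1 at 41.7. In TMEM9 KD the order was ACLY at 94.7, FASN at 74.4, SCD at 61.8, ELOVL1 at 58.6, ELOVL5 at 49.6 and ACSL4 at 37.2. ACSL4 thus moved from the top of these genes to the lowest of the 6.

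The other lipid genes were read from lists written for this work, against 28.7% of all genes called higher and 29% lower. Of 19 regulators of lipogenic transcription, 6 rose (31.6%) and 7 fell (36.8%), near those shares, with a median log2 fold change of -0.00. RXRA, a partner of nuclear receptors, fell from 219 and 209 CPM to 98.2 and 108 CPM. INSIG2, which retains SREBP precursors in the endoplasmic reticulum, fell by 1.06 on the log2 scale, the oxysterol receptor gene NR1H3 by 1.03 and PPARA, a receptor that drives fatty acid oxidation genes, by 0.97. SREBF1 and INSIG1 fall outside the naming rule and were chosen after their values were seen. SREBF1, which encodes SREBP-1, fell from 139 and 137 CPM to 95.6 and 94.5 CPM (log2 fold change -0.54, SE 0.0678, adjusted p = 3.24e-11). Of the 32 tested genes of the set, which were not sorted by SREBP-1 control, 13 were higher (40.6%) and 15 lower (46.9%). Whether the level of SREBF1 has a part in these values was not tested. INSIG1, itself a known SREBP target, rose from 31.3 and 29 CPM to 48.3 and 45 CPM (log2 fold change 0.63, SE 0.0944, adjusted p = 1.06e-08).

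Among 9 genes that supply citrate, NADPH and malonyl-CoA, 2 rose (22.2%) and 4 fell (44.4%; median -0.15). PC, pyruvate carboxylase, which refills the citrate cycle, fell from 154 and 156 CPM to 56.7 and 64.2 CPM (log2 fold change -1.36, SE 0.0718, adjusted p = 1.09e-31). ME1, an NADPH-producing malic enzyme, fell by 0.59 on the log2 scale. Of 7 partners of the elongation cycle, 5 were tested, of which 0 rose and 2 fell (40%), the dehydratase genes HACD1 and HACD3 with log2 fold changes of -0.29 and -0.31.

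Other acyl-CoA synthetases and uptake genes split, with 6 of 17 tested higher (35.3%) and 5 lower (29.4%, median -0.02). Higher among the synthetase genes were ACSL6, ACSM3 and ACSF3, with log2 fold changes of 1.07, 1.80 and 0.60. ACSS1 and ACSF2 were lower, at -0.93 and -2.62. ACSL6, ACSM3, ACSF3 and ACSS1 fall outside the naming rule and were chosen after their values were seen. ACSF2, a mitochondrial acyl-CoA synthetase, fell from 14.3 and 14.9 CPM to 2.26 and 2.46 CPM, and the lipoprotein receptor gene VLDLR from 12.9 and 14.6 CPM to 3.66 and 3.49 CPM. SLC27A1, a fatty acid transporter, fell by 1.10 on the log2 scale. Of 21 lipid droplet and lipolysis genes, 11 were tested, of which 6 rose (54.5%) and 0 fell (median 0.25). MGLL, monoacylglycerol lipase, rose from 47.1 and 50 CPM to 121 and 133 CPM (log2 fold change 1.39, SE 0.0756, adjusted p = 9.09e-31). ABHD5, which activates triglyceride lipase, rose by a log2 fold change of 0.64, the droplet coat gene PLIN3 by 0.39 and the sterol acyltransferase gene SOAT1 by 0.26.

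Fatty acid oxidation genes fell in 15 of 28 tested and rose in 1, ACOX2 (53.6% and 3.57%; median -0.28), against 29% and 28.7% of all genes. ACADVL, very long-chain acyl-CoA dehydrogenase, fell from 222 and 224 CPM to 108 and 113 CPM (log2 fold change -1.01, SE 0.0638, adjusted p = 1.48e-26). CPT1A, which brings acyl groups into mitochondria, fell from 113 and 117 CPM to 69.9 and 66.3 CPM. ETFB and DECR1 fell by 0.84 and 0.66 on the log2 scale. Phospholipid synthesis and remodelling genes rose in 6 of 27 (22.2%) and fell in 11 (40.7%; median -0.07). The lysophospholipid acyltransferase gene MBOAT2 fell from 76.3 and 75.5 CPM to 38.4 and 34 CPM and CDS1, which makes CDP-diacylglycerol, by 1.03 on the log2 scale, while PISD and TAMM41, mitochondrial enzymes of phosphatidylethanolamine and cardiolipin synthesis, rose with log2 values of 0.82 and 0.85. Of 9 genes of mitochondrial fatty acid synthesis, 1 rose, LIAS (log2 fold change 0.88), and 1 fell, CBR4 (-0.36).

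**Figure D4:**
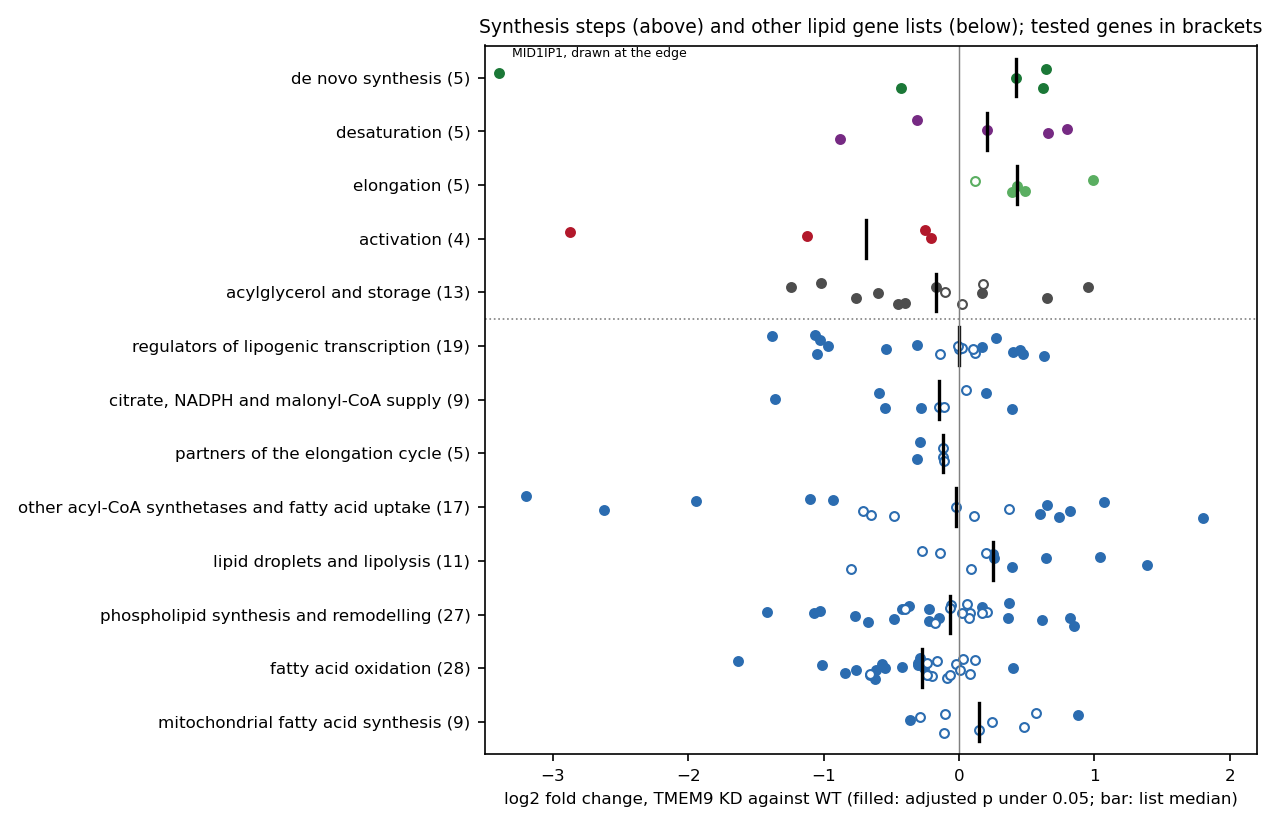
Log2 fold change (x axis, TMEM9 KD against WT) of each tested gene in the 5 synthesis steps and in 8 other lipid gene lists; filled points passed the adjusted p threshold of 0.05, black bars are list medians, and MID1IP1 is drawn at the left edge. The elongation list lies right of 0 and the activation list left of it, and the fatty acid oxidation points lie mostly left of 0 with a median of -0.28.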

How the data were processed

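The authors deposited raw counts per Ensembl gene, 48162 genes with a column for each of 4 libraries of MDA-MB-453 cells (2 WT, 2 TMEM9 KD). Per the labels' protocols, RNA was taken up with a column kit and 1 ug of total RNA went into Illumina libraries. The submitters' processing notes list Bowtie 0.12.2, CASAVA and 2 builds, mm8 and hg19, with no roles. The sources used here do not give the counting tool, annotation or strand setting. Symbols were found for 45342 genes from tables of Ensembl names and GENCODE 29, which also gave exon lengths, overlaps and chromosomes. Every column belonged to a sample.

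Counts were fitted with edgeR 4.0.16 in R 4.3.3 (TMM factors, filterByExpr with minimum count 10 and minimum total 15, quasi-likelihood F test with group as the only term), with Benjamini-Hochberg adjustment over 14923 genes and a threshold of 0.05. The common biological coefficient of variation was 0.0498, with 2 residual degrees of freedom. SE values were taken as the size of the log2 fold change divided by the root of F. Libraries of a group differed by more than sampling noise (chi-square over degrees of freedom 2.04 in WT and 4.82 in TMEM9 KD, over genes with at least 20 counts), so none was treated as a library deposited again. They were counted as replicates because they are labelled as separate samples, which does not show that their spread is biological.

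Values in every library are given for each gene of the set past the threshold, and from each other list for up to 4 called genes with the largest change and a mean of at least 5 CPM; a few genes that this rule or the marker lists name are not reported here. The members and lists were chosen with earlier results of these data known. Alternatives were other scaling, filters, DESeq2 1.42.0, limma voom (limma 3.58.1), a test against 1.5-fold, a replicate block, removal of the 20 most abundant genes and removal of each library in turn. Ratios against 0 counts used a floor of 3 counts for the group without counts and took the other group's counts as exact. Intervals cover counting error only.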

Additional observations from a re-analysis of the deposited data

How the results depend on the processing

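Over 32 genes and 14 other settings, 399 of 448 values kept their direction and their side of the threshold, 42 lost the call, 4 gained one and 3 changed sign. The sign changes were in genes that were not called, AGPAT2 (-0.01 without WT replicate 2 and -0.04 without TMEM9_KD replicate 2, with a range of -0.04 to 0.07 over the fits without a library) and ELOVL5 (-0.00 without TMEM9_KD replicate 1, range -0.00 to 0.23). Against 1.5-fold, 1111 genes were higher and 1692 lower over the whole table, and 3 and 7 in the set. The set's median log2 fold change was near 0 and turned to 0.03 with library totals only, where the median of all genes was 0.08, and to 0.01 without a filter. Leaving out each library in turn gave medians from -0.08 to -0.02, with 10 to 13 genes higher and 12 to 15 lower in the set. In these fits a lone library is assumed to vary like the other group. With the replicate block, 4171 and 4266 genes were called higher and lower, and 13 and 14 in the set, where GPAT4 lost its call (adjusted p = 0.0607). The labels do not say that a number pairs libraries, and the correlation of same-numbered deviations was 0.000474. With the median of each gene's chromosome removed, an alternative chosen after seeing the data, GPAT4 turned to 0.03 and AGPAT2 to -0.07, 21 genes moved by less than their SE, and 9 by more: ACLY to 0.49, FASN to 0.71, SCD5 to -1.14, ELOVL6 to 0.13, ACSL1 to -0.47, ACSL4 to -1.03, GPAT3 to 0.38, AGPAT5 to 0.37 and DGAT1 to -0.40. The chromosome medians of the set's genes ran from -0.20 on chromosome 8 to 0.26 on chromosome 4. Depth limits THRSP, ELOVL2 and PLIN2, which had at most 9 counts in a group.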
